A study of Mus musculus with 6 samples.

Results

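The genes described here build, take up, store and export cholesterol, or build and modify fatty acids. They are the 45 rows of the count table whose symbol is on a list of 18 sterol synthesis enzymes, 5 regulators of the SREBP system, 4 genes of sterol transport and storage, 5 genes of the LXR and efflux arm and 13 genes of fatty acid synthesis. The table holds 25746 genes. All 45 listed genes were found, and all 45 passed the filter on low counts. RNA-seq was deposited for 2 Acta2 KO and 2 WT libraries of mouse cardiac fibroblasts, and ATAC-seq, which maps open chromatin, for 1 library of each genotype. KO stands for loss of Acta2, the α-smooth muscle actin gene, and the question was what that loss does to these cells. According to the extraction protocol, cells came from Acta2fl/fl and WT hearts, both were given Adeno-Cre, an adenovirus that delivers the Cre recombinase, and both received TGFβ for 2 days, so that the controls carry the virus and the cytokine too. The same labels also describe mice with a tamoxifen-inducible MerCreMer, dosed at 75 mg per kg of body weight a day for 5 days from an age of 6 weeks, a coronary ligation at 9 weeks of age with a further tamoxifen course around it, and sorting of eGFP+ cells of the Tcf21 lineage. Which of these routes each library followed is not stated. The labels do not say that replicates are separate cultures or animals, nor whether animals were pooled, so p-values measure the spread between these libraries, which may be technical.

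Cholesterol is made from acetyl-CoA by a chain of enzymes that first builds mevalonate and isoprenoid units, joins them to squalene and then closes and trims the ring. The transcription factors SREBP1 and SREBP2, encoded by Srebf1 and Srebf2, switch on these enzymes and those of fatty acid synthesis when membrane sterol is low. SCAP escorts them out of the endoplasmic reticulum, and the INSIG proteins hold them back when sterol is plentiful. The nuclear receptors LXRα and LXRβ, encoded by Nr1h3 and Nr1h2, answer to oxysterols in the opposite situation and induce the exporters ABCA1 and ABCG1.

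The RNA-seq libraries held between 8429166 and 11370115 estimated counts. Acta2 itself stood at 256 and 265 CPM (estimated counts scaled to the library totals with TMM factors) in KO and at 2184 and 2198 CPM in WT, so both labels held for the targeted gene. Of 12 fibroblast markers, all were tested, 9 were lower and 2 higher in KO, against 17.4% and 18.3% of all tested genes. Lum at 47.9%, Dcn at 56.4%, Tcf21 at 56.6% and Postn at 57.6% of WT were as far down as many sterol enzymes, Col1a1 was at 89.9% and Pdgfra at 87.7%, and Thy1 and Pdpn rose to 123% and 145%. Tcf21, which marks the sorted lineage, had 5.6 and 6.84 CPM in KO against 10.9 and 11.05 CPM in WT. In bulk RNA, fewer cells of one type and less RNA per cell cannot be told apart.

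Sterol and fatty acid genes were mostly lower in KO. At an adjusted p below 0.05 in edgeR's quasi-likelihood test, adjusted over all 12192 tested genes, 28 of the 45 fell, 3 rose and 14 did not pass. Over all tested genes, 17.4% fell and 18.3% rose by the same rule. The median log2 fold change of KO against WT was -0.35 for the 45 genes and 0.0014 for all tested genes. In 38 of the 45 genes both KO libraries lay below both WT libraries in CPM, and in 3 both lay above, against 32.8% and 34.3% of all tested genes. By role, 16 of 18 sterol enzymes fell, 8 of 13 fatty acid genes, 2 of 4 transport genes, 1 of 5 SREBP regulators and 1 of 5 LXR genes. Whether these shares differ between the roles was not tested. Fewer genes were called when a wider spread between replicates was assumed than the fitted biological coefficient of variation (BCV) of 0.0311. With a BCV of 0.1 the numbers were 21 lower and 0 higher (1 higher at an unadjusted p below 0.05), and with 0.2 they were 3 and 0 (0 higher at an unadjusted p below 0.05), in edgeR's likelihood ratio test. The same test called 753 of all 12192 tested genes lower and 1027 higher with a BCV of 0.1, and 175 and 223 with 0.2. The 21 include Mylip, which was not called in the main fit.

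**Figure D1:**
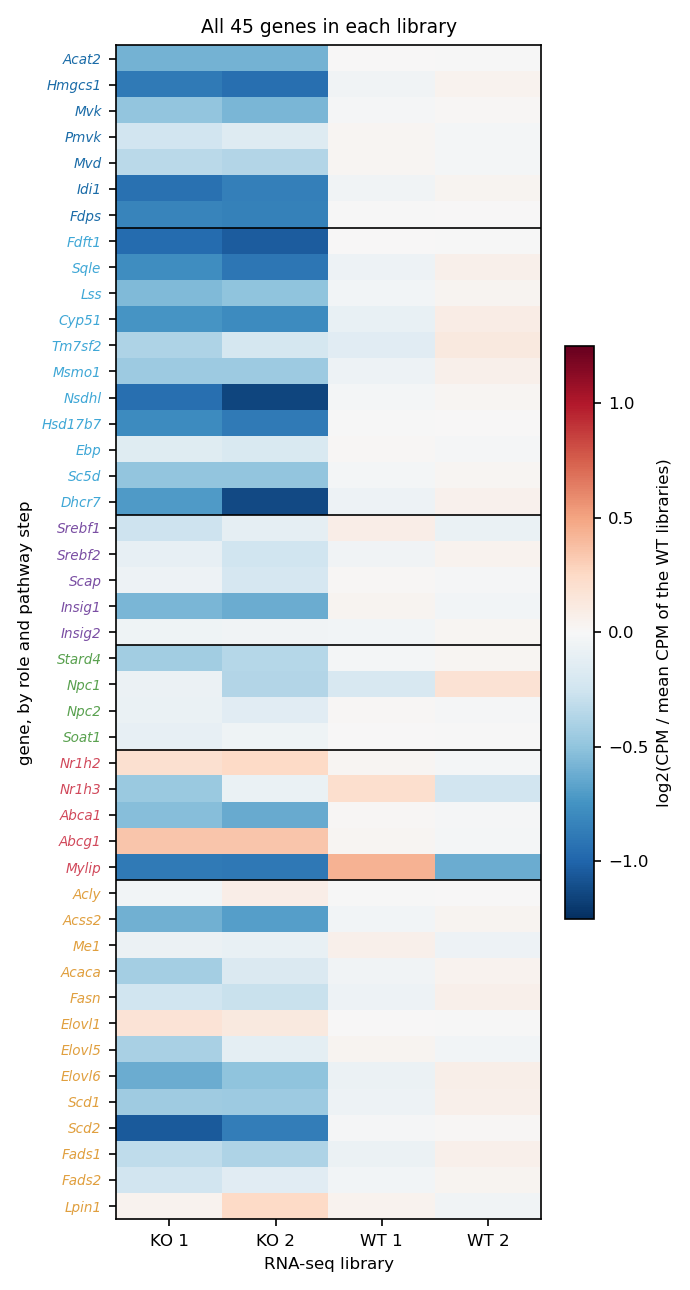
Each row is one of the 45 genes, ordered by role and pathway step with the label coloured by role, and each column is 1 RNA-seq library. Colour gives log2 of the CPM over the mean CPM of the WT libraries: both KO columns are blue through the sterol enzymes at the top, and Nr1h2, Abcg1 and Elovl1 are the 3 rows in which both KO libraries lie above both WT libraries.

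All 18 enzymes of sterol synthesis had less transcript in both KO libraries than in either WT library, against 32.8% of all tested genes. Summed over the 18 enzymes the level was 1275 and 1250.2 CPM in KO against 1944 and 2022 CPM in WT. The median log2 fold change was -0.68, with a range from -1.04 to -0.17, and 0 of the 18 rose, also at an unadjusted p below 0.05 and with DESeq2, which called 14 lower. DESeq2 called 1096 of all 12192 tested genes lower. The 7 enzymes up to farnesyl diphosphate had a median of -0.59 and the 11 from squalene on a median of -0.76. Without WT replicate 1 the second median was -0.84, and without WT replicate 2 it was -0.67. In the same libraries fibroblast markers had a median of -0.33, macrophage markers of 0.84 and endothelial markers of 0.52. Their part in the sterol result was not tested.

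In the mevalonate part of the chain, Acat2, the thiolase that condenses acetyl-CoA, had 117 and 117 CPM in KO against 177 and 174 CPM in WT. Hmgcs1, the HMG-CoA synthase of the next step, had 49.4 and 47.6 CPM in KO against 88.4 and 94.5 CPM in WT. Replicates lay close together, and the genotypes did not overlap for either gene. The log2 fold change was -0.59 for Acat2 (SE 0.049, edgeR adjusted p = 1.54e-10) and -0.91 for Hmgcs1 (SE 0.066, edgeR adjusted p = 1.04e-11). Mevalonate is then phosphorylated by Mvk and Pmvk and decarboxylated by Mvd, and these 3 lay closer to WT than Hmgcs1. Mvk fell from 27.9 and 28.6 CPM in WT to 20.1 and 19.0 CPM in KO, a log2 fold change of -0.53, and Mvd from 23.1 and 22.3 to 18.03 and 17.6 CPM, a log2 fold change of -0.35. Pmvk did not pass, at 19.6 and 20.7 CPM in KO against 23.5 and 22.8 CPM in WT (log2 fold change -0.20, edgeR adjusted p = 0.184). The call of Mvd was lost with DESeq2, with a BCV of 0.1, without KO replicate 2 and without WT replicate 1.

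Isoprenoid units are isomerised by Idi1 and joined to farnesyl diphosphate by Fdps. Idi1 had 54.2 and 57.1 CPM in KO against 101 and 106 CPM in WT, and Fdps 118 and 117 CPM in KO against 209 and 209.9 CPM in WT. In both genes the KO libraries sat at a little over 50% of WT, at 53.7% for Idi1 and 56.1% for Fdps. The log2 fold changes were -0.90 (SE 0.062, edgeR adjusted p = 4.37e-12) and -0.83 (SE 0.047, edgeR adjusted p = 5.76e-14). For several of the 45 genes, 100-base windows of the transcripts also occur in transcripts of other genes, so the estimated counts may have been divided. That share was 28.9% for Acat2, 23.7% for the fatty acid gene Acaca, 21.9% for Idi1, 21.4% for Fdps, 18.3% for Fdft1, 14.6% for the fatty acid gene Me1, 8.22% for Hmgcs1, 7.92% for Tm7sf2 and 6.59% for Scap, and below these for the others. Exons also overlap those of other genes, over 26.7% of their length for Fdps, 18.3% for Fdft1, 13.2% for Scap, 12.1% for Hmgcs1 and for Tm7sf2, 9.22% for Idi1 and 9.12% for Acss2. The protocol does not state that strand was kept, so the values of all these genes are uncertain to that extent.

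Fdft1, the squalene synthase (ENSMUSG00000021273, chromosome 14, 63145150 to 63179578 in mm10, minus strand), commits the isoprenoids to sterol. It had 82.0 and 77.8 CPM in KO against 161 and 159.5 CPM in WT. The mean of the KO libraries was 49.96% of that of WT, a log2 fold change of -1.001 (SE 0.052, edgeR adjusted p = 7.70e-15), the smallest p of the 45. The gene whose exons overlap its own is Ctsb, a lysosomal protease. Ctsb had 1984 CPM (KO) and 2204 CPM (WT), a log2 fold change of -0.15. The part of Ctsb reads in the values of Fdft1 was not tested.

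Sqle, the squalene epoxidase, fell from 98.1 and 107 CPM in WT to 59.9 and 54.96 CPM in KO, a log2 fold change of -0.84 (SE 0.065, edgeR adjusted p = 4.01e-11). Lss, which closes the ring to lanosterol, fell from 53.7 and 56.5 to 37.5 and 38.7 CPM, a log2 fold change of -0.53. Cyp51, which demethylates lanosterol, had 88.2 and 85.4 CPM in KO against 138 and 157 CPM in WT (log2 fold change -0.76, SE 0.058, edgeR adjusted p = 2.86e-11). For each of these 3 the higher KO library stayed well under the lower WT library.

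The late steps remove methyl groups and shift or reduce double bonds. Nsdhl, a dehydrogenase of the demethylation complex (ENSMUSG00000031349, chromosome X, 72918557 to 72958514 in mm10, plus strand), had 28.4 and 24.6 CPM in KO against 53.6 and 55.5 CPM in WT. Its log2 fold change of -1.04 was the lowest of the 45. Its partners in that complex moved as well: Hsd17b7, the ketosterol reductase, went from 75.6 and 76.1 to 44.0 and 41.0 CPM (log2 fold change -0.83), and Msmo1, the methylsterol oxidase, from 258 and 282 to 197 and 197 CPM (log2 fold change -0.45). Dhcr7, the reductase that ends the branch through 7-dehydrocholesterol, had 17.2 and 12.9 CPM in KO against 27.0 and 29.3 CPM in WT, with a log2 fold change of -0.90. Relative to their level, its KO libraries were further apart than those of Nsdhl or Hsd17b7. Sc5d, the sterol desaturase, had 249.8 and 249.7 CPM in KO against 347 and 358 CPM in WT (log2 fold change -0.50, SE 0.040, edgeR adjusted p = 8.47e-11).

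Of the late enzymes Ebp stood closest to WT, and the SE of Tm7sf2 was too large to place it among the others. Ebp, the sterol isomerase, had 71.2 and 68.9 CPM in KO against 79.5 and 78.1 CPM in WT, a log2 fold change of -0.17 that was called at edgeR adjusted p = 0.033. That call was lost with DESeq2, with a BCV of 0.1, with scaling by library size alone, without the filter on low counts and without any 1 of the 4 libraries. Tm7sf2, a sterol reductase whose reaction can also be carried out by another enzyme, was the least abundant of the 18, at 3.33 and 3.74 CPM in KO against 3.95 and 4.75 CPM in WT. It did not pass (log2 fold change -0.31, SE 0.26, edgeR adjusted p = 0.39). Within each library the ratio of Fdft1 to Ebp CPM was 1.15 and 1.13 in KO and 2.02 and 2.04 in WT. That ratio restates their log2 fold changes of -1.001 and -0.17, which lie far apart among the 18, and is no separate support.

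**Figure D2:**
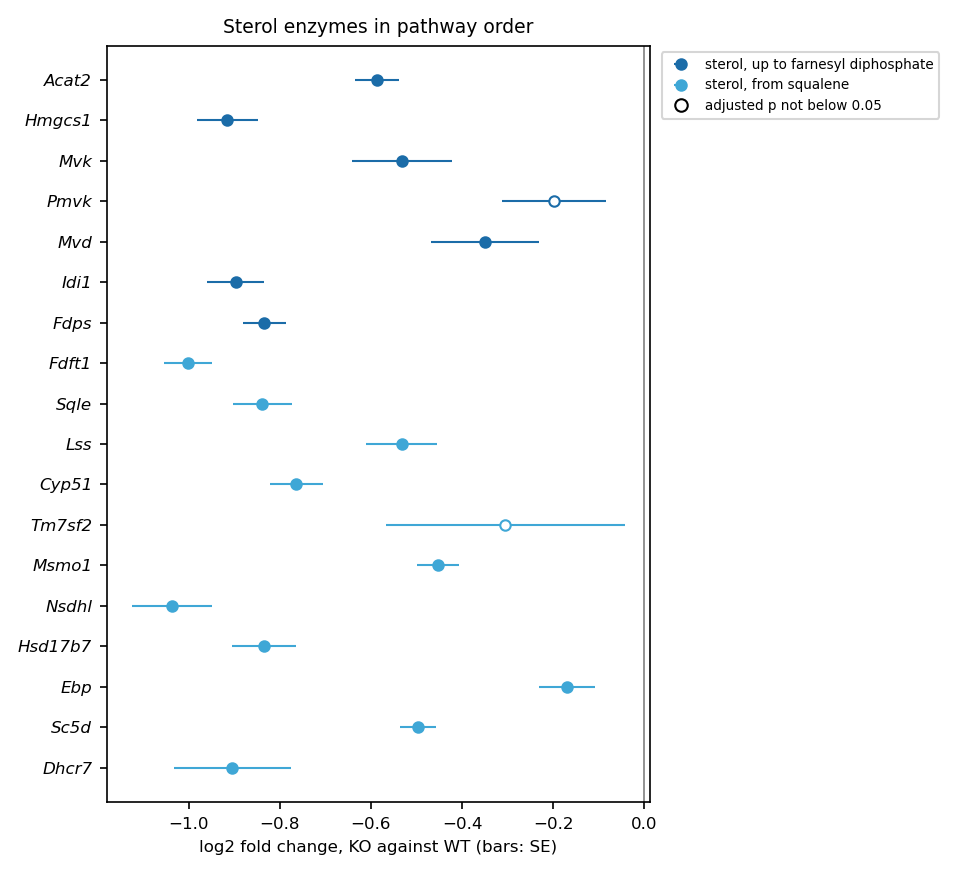
Points give the log2 fold change of KO against WT for the 18 sterol enzymes from the earliest step (top) to the latest (bottom), with the SE as bars, and filled points passed the test. All points lie below 0, from -1.04 for Nsdhl to -0.17 for Ebp, and Pmvk and Tm7sf2 are open.

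Compared per kilobase of annotated exon, the sterol enzymes differed widely in level. In WT, Sc5d at 72.5 and Acat2 at 68.9 CPM per kilobase were the highest, followed by Fdps at 49.8 and Msmo1 at 43.9. Lss at 5.10, Dhcr7 at 4.83 and Tm7sf2 at 0.988 CPM per kilobase were the lowest. These levels use all annotated exons of a gene, so a gene with long rare exons is understated.

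Of the 5 SREBP regulators Insig1 fell and the other 4 did not pass. Insig1, a retention factor that acts when sterol is plentiful and itself a known SREBP target (ENSMUSG00000045294, chromosome 5, 28071363 to 28078662 in mm10, plus strand), had 57.5 and 55.8 CPM in KO against 87.8 and 83.5 CPM in WT. The genotypes were clearly apart, with a log2 fold change of -0.60 (SE 0.064, edgeR adjusted p = 2.53e-08). Insig2, the related retention factor, had 63.7 and 64.3 CPM in KO against 64.8 and 67.5 CPM in WT and did not pass (log2 fold change -0.05, SE 0.066, edgeR adjusted p = 0.606). The ratio of Insig1 to Insig2 CPM within a library was 0.902 and 0.868 in KO and 1.35 and 1.24 in WT.

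The transcription factors and their escort were low in every library and did not pass. Srebf1 had 15.7 and 17.3 CPM in KO against 19.8 and 17.7 CPM in WT, with a log2 fold change of -0.18 (SE 0.13, edgeR adjusted p = 0.296). Srebf2 had 18.9 and 17.04 CPM in KO against 19.8 and 20.9 CPM in WT, also with -0.18 (SE 0.12, edgeR adjusted p = 0.28). Scap had 12.7 and 11.5 CPM in KO against 13.4 and 13.2 CPM in WT, a log2 fold change of -0.13 (SE 0.15). In all 5 regulators both KO libraries lay under both WT libraries, against 32.8% of all tested genes. For Srebf1, Srebf2 and Scap, however, the gap between genotypes was smaller than the distance between the KO replicates. Leaving out 1 library moved the log2 fold change between -0.26 and -0.10 for Srebf1 and for Srebf2 and between -0.21 and -0.06 for Scap, with no call. A missed threshold does not show that their levels were equal, and transcript levels do not show how much SREBP protein was processed.

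Of the genes that move or store sterol inside the cell, Stard4 and Npc2 fell. Stard4, a carrier that shuttles cholesterol between membranes and a known SREBP target, had 47.0 and 49.6 CPM in KO against 62.5 and 64.4 CPM in WT (log2 fold change -0.40, SE 0.072, edgeR adjusted p = 8.24e-05), a call lost with a BCV of 0.1. Npc2, the soluble lysosomal sterol carrier and the most abundant of the 45 in CPM, had 1195 and 1151 CPM in KO against 1278 and 1258 CPM in WT. Its log2 fold change was -0.11 (SE 0.027, edgeR adjusted p = 0.00198), and the call was lost without KO replicate 2 and with a BCV of 0.1. The libraries did not overlap for either gene, but the step of Npc2 was small. Soat1, which esterifies cholesterol for storage, had 281 and 291 CPM in KO against 302 and 302 CPM in WT and did not pass (log2 fold change -0.08, edgeR adjusted p = 0.118). Npc1, the membrane partner of NPC2, overlapped between genotypes, with 22.4 and 18.2 CPM in KO against 20.5 and 26.6 CPM in WT. It did not pass (log2 fold change -0.22, edgeR adjusted p = 0.204), and its value moved with each library left out. The log2 fold change was -0.38 without KO replicate 1 and -0.39 without WT replicate 1, both called, and -0.08 without KO replicate 2 and -0.01 without WT replicate 2, neither called.

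The LXR and efflux genes went in different directions. Abcg1, an exporter of cholesterol to lipoprotein particles (ENSMUSG00000024030, chromosome 17, 31057675 to 31117988 in mm10, plus strand), had 116 and 116 CPM in KO against 92.6 and 89.9 CPM in WT. Nr1h2, the gene of LXRβ, had 137 and 141 CPM in KO against 121 and 117 CPM in WT. Both rose without overlap, with log2 fold changes of 0.35 (SE 0.054, edgeR adjusted p = 8.64e-06) and 0.22 (SE 0.051, edgeR adjusted p = 0.00105), and both calls were lost with a BCV of 0.1. Abca1, the exporter to lipid-poor apolipoproteins, had 8.58 and 8.02 CPM in KO against 12.6 and 12.3 CPM in WT. It fell by 0.58 on the log2 scale (SE 0.16, edgeR adjusted p = 0.00546), and this call was lost with DESeq2.

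The other 2 genes of this arm had fewer estimated counts in each library than Abca1, which had 98 and 88 (KO) and 105 and 111 (WT). Mylip, the ubiquitin ligase that marks lipoprotein receptors for degradation, had estimated counts of 22 and 21 (KO) and of 40 and 21 (WT). Only WT replicate 1 stood apart, and the gene did not pass (log2 fold change -0.87, SE 0.36, edgeR adjusted p = 0.0571). Mylip was called lower with an assumed BCV of 0.1. Its log2 fold change was -1.32 without WT replicate 2, where it was called, and -0.27 without WT replicate 1, where it was not. Nr1h3, the gene of LXRα, had estimated counts of 67 and 84 (KO) and of 78 and 62 (WT), overlapped between genotypes in CPM and did not pass (log2 fold change -0.26, edgeR adjusted p = 0.345). Its value moved from -0.47 without WT replicate 2 to -0.02 without WT replicate 1. Per kilobase of exon, LXRβ transcripts stood at 35.6 and LXRα transcripts at 3.22 CPM in WT, and those of Abcg1 at 12.5 and of Abca1 at 1.199 CPM. The ratio of Abcg1 to Abca1 CPM was 13.5 and 14.5 in the KO libraries and 7.36 and 7.33 in the WT libraries.

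Macrophages express LXRα and both exporters at high levels, so their markers are given beside these genes. Of 12 macrophage and leukocyte markers, 8 were tested, 6 of these rose and none fell in edgeR's test (0 lower at an unadjusted p below 0.05), with a summed level of 178 and 179.6 CPM in KO against 103 and 98.7 CPM in WT. Lyz2 (95.4 CPM in KO against 50.7 in WT on average), Cd68 (40.4 against 24.7), Cd14 (17.9 against 10.4), Adgre1 (6.53 against 2.16), C1qb (3.10 against 0.875) and C1qa (2.09 against 0.751) rose. The defining Ptprc stood at 0.963 and 0.82 CPM in KO against 0.599 and 0.11 CPM in WT, Fcgr1 at 0 in each library, and Mrc1 at 0 in 1 library of each genotype. Of 12 endothelial markers, 11 were tested, 8 rose and Flt1 fell, with a sum of 152 and 167 CPM in KO against 121 and 115 CPM in WT. Over all tested genes 18.3% rose and 17.4% fell. The part of macrophages and endothelial cells in the values of Abcg1, Nr1h2 and Abca1 was not tested.

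Of the 13 fatty acid genes 8 fell and 1 rose, against 17.4% and 18.3% of all tested genes. Among them all 4 desaturases fell in the main fit, and the 3 elongases went in different directions. Of the enzymes that supply and join acetyl-CoA, Acss2 and Fasn fell and Acly and Acaca did not pass. Scd2, a stearoyl-CoA desaturase that introduces the double bond of oleate (ENSMUSG00000025203, chromosome 19, 44293674 to 44306864 in mm10, plus strand), had 80.9 and 92.0 CPM in KO against 165 and 169 CPM in WT. Scd1, its neighbour on the chromosome with the same activity, had 54.8 and 54.3 CPM in KO against 71.3 and 77.9 CPM in WT. In both genes the KO libraries lay apart from WT, further for Scd2. The log2 fold change was -0.95 for Scd2 (SE 0.056, edgeR adjusted p = 1.26e-13) and -0.45 for Scd1 (SE 0.068, edgeR adjusted p = 6.76e-06). The ratio of Scd2 to Scd1 CPM was 1.48 and 1.69 in KO and 2.32 and 2.17 in WT. Few of their 100-base windows are shared with other genes, 0.879% for Scd2 and 2.58% for Scd1.

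The desaturases of polyunsaturated fatty acids fell too. Fads1, the delta-5 desaturase, went from 102 and 112 CPM in WT to 85.9 and 81.8 CPM in KO (log2 fold change -0.35, SE 0.059, edgeR adjusted p = 3.20e-05), a call lost with a BCV of 0.1. Fads2, the delta-6 desaturase, went from 162 and 169.9 to 140.2 and 150.4 CPM (log2 fold change -0.19), and its call was lost without KO replicate 1, without WT replicate 2 and with a BCV of 0.1. Among the elongases the direction differed by gene. Elovl6, which extends palmitate, had 22.4 and 24.3 CPM in KO against 32.7 and 36.2 CPM in WT (log2 fold change -0.56, SE 0.10, edgeR adjusted p = 6.82e-05). Elovl5, which extends polyunsaturated chains, had 36.5 and 44.7 CPM in KO against 49.7 and 47.2 CPM in WT (log2 fold change -0.26). Its KO libraries were far apart, and the call was lost with DESeq2, with a BCV of 0.1, without WT replicate 1 and without KO replicate 1, where the value was -0.12. Elovl1, which makes very long saturated chains, was the 1 gene of this role that rose, with 366 and 355 CPM in KO against 327 and 323 CPM in WT (log2 fold change 0.15), a call lost without KO replicate 1 and with a BCV of 0.1. The ratio of Elovl6 to Elovl1 CPM was 0.0612 and 0.0686 in KO and 0.10 and 0.112 in WT.

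Synthesis from acetyl-CoA gave calls for some of its enzymes. Fasn, the fatty acid synthase, had 34.3 and 33.5 CPM in KO against 38.9 and 42.4 CPM in WT (log2 fold change -0.27), and its call was lost with DESeq2, with a BCV of 0.1, without KO replicate 2 and without WT replicate 2. Acaca, the acetyl-CoA carboxylase that feeds it, had 9.01 and 10.7 CPM in KO against 11.7 and 12.5 CPM in WT and did not pass (log2 fold change -0.30, edgeR adjusted p = 0.141). Acly, which cleaves citrate to cytosolic acetyl-CoA, had 230.3 and 250.2 CPM in KO against 235 and 238 CPM in WT, so the genotypes overlapped (log2 fold change 0.02, edgeR adjusted p = 0.732). The other source, the acetate-activating enzyme Acss2, fell from 10.2 and 10.7 CPM to 6.91 and 6.47 CPM (log2 fold change -0.64), a call that DESeq2 did not make. Me1, which supplies NADPH, had 37.5 and 36.9 CPM in KO against 41.2 and 37.6 CPM in WT and did not pass. Lpin1, a phosphatidate phosphatase of glycerolipid synthesis, had 51.7 and 59.8 CPM in KO against 51.9 and 48.7 CPM in WT, with a log2 fold change of 0.15. It did not pass with all libraries, was called at 0.25 without KO replicate 1 and was at 0.04, not called, without KO replicate 2.

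Adipocytes are rich in several of these enzymes. Of 8 adipocyte markers only Fabp4, which endothelial cells express too, was tested, at 48.05 and 47.1 CPM in KO against 53.0 and 48.6 CPM in WT. The 7 others did not exceed 0.958 CPM in any library, and Lep was at 0 in each.

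**Figure D3:**
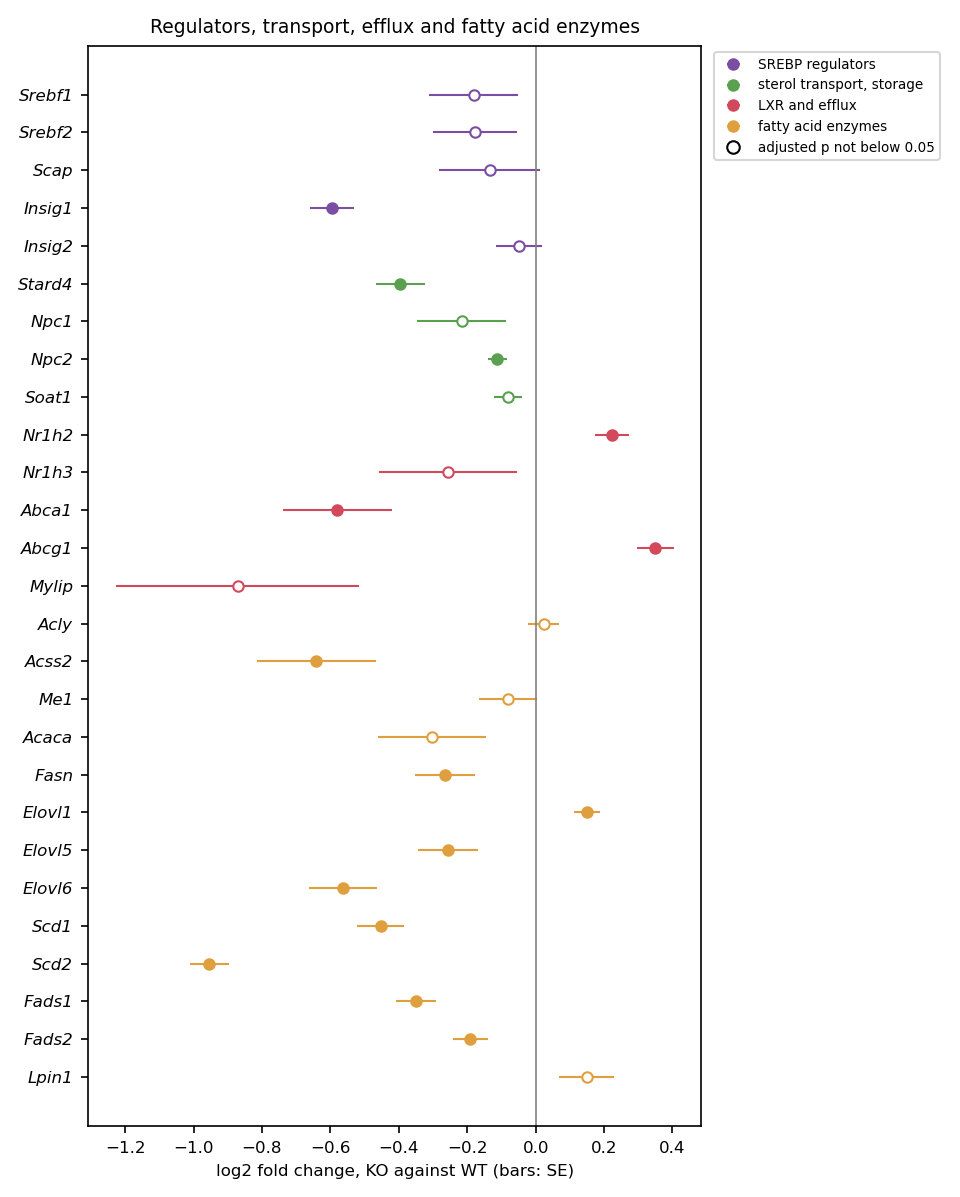
Points give the log2 fold change of KO against WT for the 27 genes outside the sterol enzymes, coloured by role, with the SE as bars, and open points did not pass the test. Insig1, Stard4, Abca1 and most fatty acid enzymes lie left of 0, with Scd2 at -0.95 the furthest among filled points, and Nr1h2, Abcg1 and Elovl1 are the filled points on the right.

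Neighbouring pathways were read from lists of their own, to be set beside the 18.3% of all tested genes that rose and the 17.4% that fell. Of 11 genes of the isoprenoid branch, which uses farnesyl diphosphate for ubiquinone, dolichol and protein prenylation, 1 rose and 1 fell, with a median log2 fold change of -0.04. These were the subunits of protein farnesyltransferase, Fntb at 0.49 and Fnta at -0.19. Of 10 genes listed around SREBP processing, Pgrmc1 rose (0.29) and Sec23a (-0.27), Sec24d (-0.17) and the protease gene Mbtps1 (-0.35) fell. Of 13 tested genes of fatty acid activation and elongation, out of 17 listed, Hacd1 rose (0.78) and Acsl4 (-0.79), Tecr (-0.41) and Hsd17b12 (-0.12) fell. Acsl4 activates arachidonate, and the other 3 act in chain elongation.

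Of 13 tested glycerolipid and lipid droplet genes 5 rose and 1 fell, against 18.3% and 17.4% of all tested genes, and whether the list differs from other genes was not tested. Those that rose were the acyltransferases Dgat1 (0.44), Dgat2 (0.67) and Agpat1 (0.57), Lpin2 (0.72) and the triglyceride lipase Pnpla2 (0.52), and the lipase cofactor Abhd5 fell (-0.25). Of 18 genes of fatty acid oxidation, 3 rose and 6 fell, with a median of -0.09. Those that rose were Cpt1c (0.36), Acads (0.33) and Acadvl (0.17), and Etfb had the lowest value of those that fell (-0.40). Of 11 tested lysosomal and membrane contact genes of sterol traffic, out of 12 listed, none rose in edgeR's test (1 at an unadjusted p below 0.05, and 0 by DESeq2). Lamp1 (-0.11), Lamp2 (-0.24), the lysosomal lipase Lipa (-0.13) and the sterol carrier Stard5 (-0.49) fell. Genes behind counts of 5 or fewer were named after their values were seen.

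Promoters of the listed genes were open in both ATAC-seq libraries. With 1 library per genotype there is no replicate check, and the values describe these 2 libraries. A deposited peak overlapped the window from 250 bases before to 50 after the annotated start in 41 of 45 genes in KO and in 41 in WT, against 90.3% and 90.2% of 12185 tested genes. The 4 without one, Pmvk, Fdft1, Insig2 and Lpin1, were the same in both libraries. The fold enrichment at the highest such peak, which is the authors' value over each library's own background, was higher in KO for 31 of the 41 genes and lower for 10. Over all tested genes with a peak in both, it was higher in KO for 8053 of 10826, with a median ratio of KO to WT of 1.13, and the median over the 41 genes was 1.14. For the sterol enzymes, whose transcripts were lower in KO, the median ratio was 1.125 over 6 enzymes up to farnesyl diphosphate, all with the higher value in KO. It was 1.035 over 10 enzymes from squalene on, 5 of them higher in KO.

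A ratio of at least 1.5 in favour of KO was seen for 2 of 41 genes, against 6.47% of all tested genes, and in favour of WT for 0 of 41, against 0.702%. The 2 were Msmo1, with a fold enrichment of 26.4 in KO and 15.6 in WT, and Nsdhl, with 12.3 and 7.80, and transcripts of both were lower in KO. The strongest promoter peaks in KO belonged to the sterol enzymes Acat2, with 50.2 in KO and 38.2 in WT, and Idi1, with 44.2 and 38.2, and the strongest in WT to Acss2, with 37.0 and 38.6. At Hmgcs1 the values were 35.7 and 32.9, and at Scd2 they were 23.4 and 24.6. Abca1, whose transcript fell, had 10.2 in KO and 13.97 in WT, and Abcg1, whose transcript rose, had 13.6 and 10.3. Of the other genes whose transcripts rose, Nr1h2 had 14.9 in KO and 15.2 in WT, and Elovl1 had 24.7 and 23.0.

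**Figure D4:**
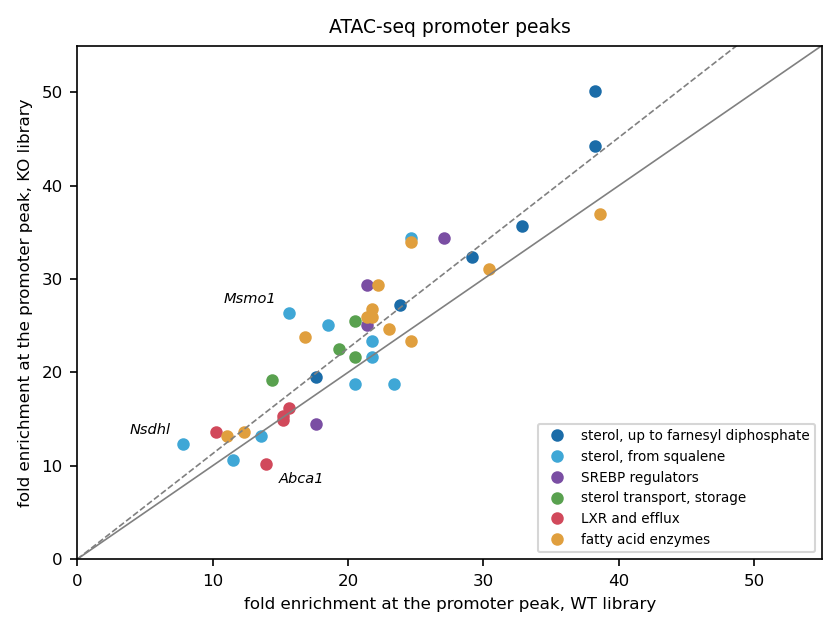
Each point is 1 of the 41 genes with a promoter peak in both ATAC-seq libraries, placed by the authors' fold enrichment in WT (horizontal) and KO (vertical) and coloured by role. The solid line marks equal values and the dashed line the median ratio of 1.13 over all tested genes: the points scatter around the dashed line, and Msmo1 and Nsdhl had the highest ratios and Abca1 the lowest.

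Promoter sequences were read around RefSeq starts, which can differ from the starts used for the peaks. Some of these windows lie outside the peaks, such as those that hold the CCAAT boxes of Dhcr7 and Me1. Pmvk and Insig2, which had no peak, were read as well. RefSeq promoters (GRCm38.p6, 300 bases each) were matched for 36 of the 45 genes, and Fdft1, Fdps, Sqle, Stard4, Npc1, Abcg1, Scd1, Scd2 and Fads1 had no entry. Shown are the 3 sterol enzymes with the smallest p among those matched, and Abca1 as an LXR target, up to the base before the first annotated start, 5′ to 3′. Capitals mark matches on either strand to a sterol regulatory element of the form TCACNCCAC, to the E-box letters CACGTG, to the CCAAT box and to the GC box letters GGGCGG. In capitals, ATTGG stands for the CCAAT box of the other strand, and CCGCCC likewise for the GC box.
Hmgcs1 (chr13:119690101-119690350, plus strand): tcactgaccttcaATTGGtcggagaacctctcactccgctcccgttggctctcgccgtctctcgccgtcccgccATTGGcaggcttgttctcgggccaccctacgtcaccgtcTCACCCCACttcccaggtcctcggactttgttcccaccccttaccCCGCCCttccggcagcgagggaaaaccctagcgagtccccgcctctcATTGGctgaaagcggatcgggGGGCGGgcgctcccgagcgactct
Idi1 (chr13:8885356-8885500, plus strand): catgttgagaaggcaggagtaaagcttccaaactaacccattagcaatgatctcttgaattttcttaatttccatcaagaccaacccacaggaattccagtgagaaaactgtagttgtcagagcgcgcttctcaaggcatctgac
Cyp51 (chr5:4104747-4104947, minus strand): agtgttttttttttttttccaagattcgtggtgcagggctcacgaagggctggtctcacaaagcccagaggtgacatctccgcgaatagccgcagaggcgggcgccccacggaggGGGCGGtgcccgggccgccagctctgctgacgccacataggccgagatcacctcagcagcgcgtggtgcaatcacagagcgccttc
Abca1 (chr4:53159896-53160145, minus strand): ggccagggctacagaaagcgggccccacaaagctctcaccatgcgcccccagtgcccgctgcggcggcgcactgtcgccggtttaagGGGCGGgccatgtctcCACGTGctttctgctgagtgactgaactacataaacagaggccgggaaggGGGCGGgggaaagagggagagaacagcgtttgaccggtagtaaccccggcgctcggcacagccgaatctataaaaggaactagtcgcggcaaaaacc
The stretch of Hmgcs1 holds the element TCACCCCAC at positions -137 to -129 from the RefSeq start, between CCAAT boxes at -176 and -45. The Idi1 stretch holds none of the 4 motifs, and the CCAAT boxes of its window lie at -45 and -14, beyond the stretch printed, and in Cyp51 the CCAAT box lies at -29, also beyond it. Abca1 holds an E-box at -147.

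Counted over the matched genes, 14 of 15 sterol enzymes and 27 of all 36 genes had a CCAAT box, or 75.0%, against 41.1% of all 27025 symbols with a promoter entry and 43.3% of those tested. A GC box was found in 77.8% of the 36, against 38.2% of all symbols and 69.8% of tested ones. An E-box was found in 7 of 36, or 19.4%, against 8.09% of all symbols and 11.9% of tested ones. The form of the sterol regulatory element searched here occurred in Hmgcs1 alone among the 36, or 2.78%, against 1.44% of all symbols. An exact direct repeat of AGGTCA with 4 bases between the copies, a strict form of the LXR element, was in none of the 36. It occurred in 0.0148% of all symbols and in 0 of 9524 tested ones. So rare a form cannot show whether looser copies are present, in the Abca1 stretch or elsewhere. Short motifs occur often without being used, motifs can overlap, and the search covers only these letters in this window.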

How the data were processed

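RNA-seq (2 KO, 2 WT) and ATAC-seq (1 KO, 1 WT) of mouse cardiac fibroblasts were used, grouped by the genotype in the labels' titles. Per the labels' protocols, trimming of RNA reads used Trim Galore 0.6, and STAR 2.5.3a aligned them to mm10. Neither the program that counted reads nor its annotation is given in the sources used here. The protocol speaks of TPM, which the table does not hold. The deposited table holds estimated counts per gene (10.8 to 12.2% not whole), which were rounded to whole numbers; whole counts had been planned for. ATAC-seq reads were aligned with Bowtie2 2.3, and peaks were called with MACS2 in each sample separately, per the labels' protocols. The deposited peak lists give 4 values per peak: an integer score, a fold enrichment (a ratio to a genome-wide background), a −log10 q-value and a −log10 p-value. The score was not used.

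Genotype was tested with the quasi-likelihood test of edgeR 4.0.16 (R 4.3.3) on the whole gene table, after filterByExpr with a minimum count of 10 and TMM scaling. P-values of the 12192 genes left were adjusted together (Benjamini-Hochberg, threshold 0.05), and SEs were derived from the F statistic. Alternatives were DESeq2 1.42.0, other scalings and filters, an assumed BCV, the replicate number as a term and leaving out each library. The script was tested on simulated data. Replicates differed by more than sampling noise (chi-square over its degrees of freedom 1.94 for the KO pair, 1.75 for the WT pair), so all 4 libraries were kept. Exon lengths, starts and shared 100-base windows came from GENCODE M21 (GRCm38, the assembly of mm10), which held 25635 of 25746 gene IDs.

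The 45 genes, the lists around them and the motifs were chosen with earlier results of these data known. Named genes followed a rule: all 45 with values, SE and adjusted p for up to 4 per role with the smallest p, up to 2 called genes per neighbouring list, and promoters of 3 sterol enzymes and 1 LXR target. Further genes of the neighbouring lists and the markers given with values were named after their values were seen. Marker lists of mesothelial cells (1 higher, 4 lower of 7 tested), pericytes and smooth muscle (3 and 3 of 6), cardiomyocytes (0 and 1 of 2) and Schwann cells (0 and 1 of 2) were read from the same fit. In that fit 18.3% of all tested genes were higher and 17.4% lower.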

Additional observations from a re-analysis of the deposited data

How the results depend on the processing

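The direction of the called genes among the 45 did not change under any alternative run. The log2 fold change of Acly, not called, ranged from -0.0360 to 0.0776 when 1 library was left out. All genes called numbered 4352, against 2058 with DESeq2, 1780 with an assumed BCV of 0.1 and 398 with 0.2. Of the 45, 28 were called lower, against 3 with a BCV of 0.2, and 3 higher, against 0 with either BCV (edgeR likelihood ratio test, 1 and 0 at an unadjusted p below 0.05). Of the 18 sterol enzymes, 16 were called lower, against 2 with a BCV of 0.2. The 3 calls kept there were Fdft1, Nsdhl and Scd2. Leaving out 1 library gave 24 to 26 of the 45 lower, 3 higher, 14 to 15 sterol enzymes lower and 3392 to 3674 genes in all, and an Acta2 log2 fold change of -3.10 to -3.05. With 1 library left out, its genotype has a single library and is assumed to vary like the other, so calls gained this way (Npc1, Lpin1, Mylip) rest on the spread of the other genotype alone. Of the 31 calls, 31 were kept with RLE factors, with a minimum count of 50 and with the replicate block, 30 with library size only and 30 without a filter, 25 with DESeq2 and 20 with a BCV of 0.1. Mylip was gained with a BCV of 0.1.

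With the replicate block the counts were 28 lower, 3 higher, 16 sterol enzymes lower and 4408 genes, and Acta2 was at -3.07. The labels do not tie equal numbers together, and the replicate deviations of KO and WT had a correlation of 0.000403 across genes, which are not independent replicates. The median of the LXR genes, of which 2 rose and 1 fell, moved between -0.47 and -0.02 when 1 library was left out and to -0.01 with a minimum count of 50. Promoter peak counts were 42 with windows of 1000 bases either side and 41 at a −log10 q-value of at least 5, in each library. Depth limits Mylip and Tm7sf2, at 21 to 43 estimated counts.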
